A study of Mus musculus with 6 samples.

Results

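Vmn2r8 to Vmn2r17 are 10 consecutively numbered genes for V2R pheromone receptors, and all 10 were lower on average in vomeronasal organs of AP-2e null mice than in those of wild-type mice. They were chosen by platform symbol among probe sets that name a single gene, and all 10 were measured, each by 1 probe set, among 22180 genes tested. No probe set that names several genes included any of them. The vomeronasal organ (VNO), the pheromone-sensing organ of the nasal septum, was taken at postnatal day 17 from wild-type mice (3 samples) and from AP-2e null mice (3 samples), and total RNA of each sample was hybridised to 1 Affymetrix whole-transcript array. AP-2e is the transcription factor encoded by Tfap2e. The labels name the genotype only, and say nothing of strain, sex, the kind of null allele or how many animals made up a sample. The samples are labelled as biological replicates. The p-values of limma set a mean difference against the spread between them, with spread shared across genes.

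V2R receptors belong to class C of the G protein-coupled receptors and carry a large extracellular domain that binds peptide and protein cues. They are made by the basal sensory neurons of the VNO, which signal through the G protein subunit Gnao1, while apical neurons use V1R receptors and Gnai2. A basal neuron typically makes 1 V2R of the larger families together with a family C V2R that serves as a co-receptor. AP-2e is known as a factor of the basal lineage.

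Genes of vomeronasal neurons gave signal on every array. Signals are log2 values normalised by the authors, and the median over all probe sets was between 4.997 and 5.079 on every array. Omp, the marker of mature chemosensory neurons, stood at 9.46 to 10.48, Gnao1 at 9.79 to 10.77 and Gnai2 at 10.52 to 10.84 on the 6 arrays. Trpc2, the transduction channel of these neurons, stood at 6.75 to 7.08. The wild-type replicates 1, 2 and 3 gave Tfap2e signals of 6.46, 6.76 and 6.92, and the null replicates gave 5.97, 6.09 and 6.04. It was lower on every null array without passing over all genes (-0.68, SE 0.13, adjusted p = 0.431 in limma). The position of its probes against the mutated region is unknown here, so the signal is a weak check of the genotype. Xist, the RNA of the inactive X chromosome, reached 10.64 on the array of AP-2e null replicate 1, while the other 5 arrays gave 3.55 to 3.58, so this replicate differs from the others in a sex marker.

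Of the 10 receptor genes, 3 fell past the threshold (adjusted p under 0.05 over all 22180 genes in limma) and 0 rose, while 0.216% of all genes fell and 0.00902% rose. The 3 were Vmn2r9, Vmn2r17 and Vmn2r8. The 10 genes had a median difference, AP-2e null minus wild-type, of -2.10 on the log2 scale, beside a median of -0.00 over all genes tested. All 10 means were lower, against 50.6% of all genes, and 9 had an unadjusted p under 0.05, against 2.49% of all genes that were lower at that p. For 9 of the 10 every null array lay below every wild-type array, against 3.64% of all genes. In whole organs, fewer cells that make a receptor and less receptor RNA per cell cannot be told apart.

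Vmn2r9 had the most negative difference of the cluster. Its log2 signal was 8.66, 8.60 and 8.83 in wild-type replicates 1, 2 and 3 and 2.41, 3.03 and 3.41 in the null replicates, both in the order of replicates 1, 2 and 3 that is kept throughout. The wild-type arrays lay close together, and a gap of 5.19 separated the lowest of them from the highest null array. The mean went from 8.69 ± 0.12 to 2.95 ± 0.51 (SD, n = 3 each), a 53.6-fold fall (95% interval 34.4 to 83.4; log2 difference -5.74, SE 0.26, adjusted p = 0.00159 in limma).

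Vmn2r17, at the other end of the cluster, fell as well. It stood at 8.32, 8.28 and 8.21 in the wild-type replicates and at 3.45, 2.60 and 2.72 in the null replicates. All wild-type values were within 0.11 of each other, and the null values spread over 0.85. The mean went from 8.27 ± 0.06 to 2.92 ± 0.46 (SD, n = 3 each), a 40.7-fold fall (95% interval 27.3 to 60.5; log2 difference -5.35, SE 0.23, adjusted p = 0.00152 in limma). Both null means, of Vmn2r9 and Vmn2r17, were below 3.62, the lower quartile of all probe sets, where background makes up much of a log2 signal and a fold is understated.

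Vmn2r8 fell too, but kept a signal well above that quartile in the null organs. Its wild-type signals were 9.24, 9.20 and 9.08 in replicates 1, 2 and 3, and its null values were 6.14, 6.22 and 5.73. The groups were 2.86 apart at their nearest arrays. The mean went from 9.17 ± 0.08 to 6.03 ± 0.26 (SD, n = 3 each), an 8.84-fold fall (95% interval 6.95 to 11.2; log2 difference -3.14, SE 0.14, adjusted p = 0.00159 in limma).

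These 3 genes were compared with each other within arrays, in 3 pairs chosen after their values were seen. The signal of Vmn2r9 minus that of Vmn2r8 went from -0.48 ± 0.19 in wild-type to -3.08 ± 0.71 in null arrays (SD, n = 3 each), a change of -2.60. Its exact permutation p was 0.1, the smallest that 3 against 3 allows, and 0.15 after Benjamini-Hochberg adjustment over the 3 pairs. Vmn2r17 minus Vmn2r8 changed by -2.20 (exact permutation p = 0.1, adjusted 0.15). Vmn2r9 minus Vmn2r17 changed by -0.40 (exact permutation p = 0.9, adjusted 0.9). Both null means lie below the lower quartile, so this pair does not show whether the 2 genes fell alike. The 95% intervals of the differences overlap for Vmn2r9 and Vmn2r17, and that of Vmn2r8 overlaps neither.

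**Figure D1:**
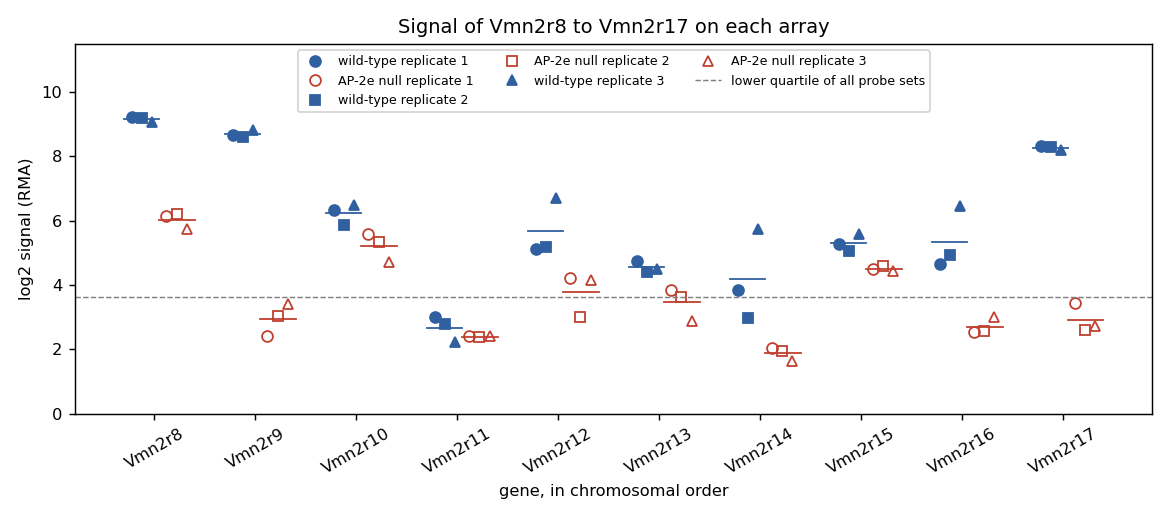
Log2 signal (RMA, vertical axis) of each receptor gene in chromosomal order, with 1 point per array, filled blue for wild-type and open red for AP-2e null replicates, short lines for the 3-array means and a dashed line at the lower quartile of all probe sets, 3.62. Vmn2r8, Vmn2r9 and Vmn2r17 lie between 8.21 and 9.24 on the wild-type arrays and apart from their null values, while Vmn2r12, Vmn2r14 and Vmn2r16 have their highest value on wild-type replicate 3.

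The other 7 genes did not pass over all genes, with differences between -2.65 and -0.28 and unadjusted p between 0.00134 and 0.207. Among them the errors were unequal: their SE ranged from 0.14 to 0.69, against 0.14 to 0.26 for the 3 that fell and a median of 0.10 over all genes.

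Vmn2r16, the neighbour of Vmn2r17 in the gene order, had the largest difference of these. Its signal was 4.67, 4.92 and 6.46 in the wild-type replicates and 2.55, 2.56 and 3.01 in the null replicates. The groups did not overlap, and wild-type replicate 3 was far above the other wild-type arrays. The difference was -2.65 (SE 0.49, 95% interval -3.86 to -1.43, adjusted p = 0.431 in limma).

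Vmn2r14 showed the widest wild-type spread of the cluster, 2.76 between the lowest and the highest array. It stood at 3.85, 2.98 and 5.74 in the wild-type replicates and at 2.03, 1.95 and 1.63 in the null replicates. The lowest wild-type array was still 0.95 above the highest null array. Its difference was -2.32 (SE 0.69, 95% interval -4.04 to -0.59, adjusted p = 0.873 in limma).

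Vmn2r12 was also highest on wild-type replicate 3. It was at 5.14, 5.17 and 6.72 in the wild-type replicates and at 4.22, 3.01 and 4.15 in the null replicates. Null replicate 2 was the lowest array, and the groups did not overlap. The difference was -1.88 (SE 0.55, adjusted p = 0.873 in limma).

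Vmn2r10, Vmn2r13 and Vmn2r15 had smaller differences with groups that did not overlap. Vmn2r10 was at 6.34, 5.87 and 6.49 in the wild-type replicates and at 5.59, 5.32 and 4.72 in the null replicates, a difference of -1.02 (SE 0.27, adjusted p = 0.873 in limma). Only 0.28 separated its nearest arrays of the 2 genotypes.

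Vmn2r13 was at 4.76, 4.40 and 4.51 in the wild-type replicates and at 3.85, 3.64 and 2.89 in the null replicates, a difference of -1.09 (SE 0.27, adjusted p = 0.873 in limma). Its wild-type arrays lay together, null replicate 3 was the lowest array, and its null mean of 3.46 was below the lower quartile of all probe sets. Vmn2r15 was at 5.27, 5.07 and 5.58 in the wild-type replicates and at 4.51, 4.58 and 4.43 in the null replicates, a difference of -0.80 (SE 0.14, 95% interval -1.14 to -0.46, adjusted p = 0.341 in limma). It had the smallest unadjusted p of the 7, 0.00134, where the largest p that passed among all genes was 0.000111.

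Vmn2r11 was the exception in overlap. It was at 3.01, 2.78 and 2.24 in the wild-type replicates and at 2.41, 2.37 and 2.41 in the null replicates, where replicates 1 and 3 held the same value. Its difference of -0.28 (SE 0.20, 95% interval -0.77 to 0.21, adjusted p = 0.873 in limma) was within the wild-type range of 0.77. It was the only member with a wild-type mean, 2.68, below that quartile of all probe sets, so a change in it may not have been measurable. V2R genes of a cluster are similar in sequence and probes can bind related transcripts, so each single value carries that uncertainty.

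Wild-type replicate 3 stood above the other wild-type arrays in several of these genes. Vmn2r14 was 2.32, Vmn2r16 1.67 and Vmn2r12 1.56 higher on it than the mean of the other wild-type arrays. Such an excess of more than 1 was seen in 3 of the 10 genes, in 15 of 92 V2R genes numbered above 17, in 9 of 176 V1R genes and in 0.753% of all genes. Vmn2r8, Vmn2r9 and Vmn2r17 were within 0.20 of that mean on it. Without wild-type replicate 3 the median difference of the 10 genes was -1.45 in place of -2.10, with Vmn2r14 at -1.54, Vmn2r16 at -2.09 and Vmn2r12 at -1.36. The same array had the highest wild-type value of Omp, 10.48 against 9.93 on both others, and of Gnao1, 10.77 against 10.45 and 10.38. The 5 markers of multiciliated respiratory cells averaged 8.09 on it, against 8.75 and 8.65 on the other wild-type arrays. The part of these shifts in the receptor values was not tested.

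**Figure D2:**
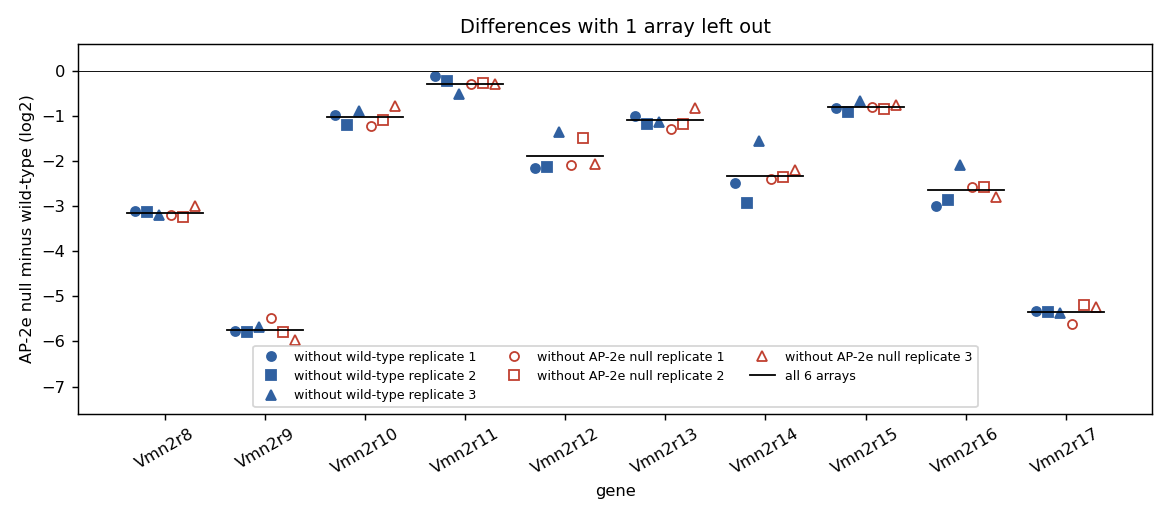
Difference between genotypes (AP-2e null minus wild-type, log2) of each receptor gene when 1 array is left out, filled blue symbols for a missing wild-type array and open red symbols for a missing null array, with a black line for all 6 arrays. Every point lies below 0, and Vmn2r12, Vmn2r14 and Vmn2r16 lie nearest to 0 without wild-type replicate 3, where Vmn2r14 is at -1.54.

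Vmn2r8, Vmn2r9 and Vmn2r17 passed whichever single array was left out, with adjusted p between 0.000874 and 0.0409 in limma. This includes the fit without AP-2e null replicate 1, the array with high Xist signal. A plain one-way test per gene, which shares no spread across genes, called 0 of the 10 (9 had an unadjusted p under 0.05 there, all lower). Its adjusted p was between 0.0644 and 0.0697 for these 3 genes and 0.843 for the other 7.

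In the RefSeq gene table (GRCm38.p6) the 10 genes follow each other in the order of their numbers on chromosome 5, with 8 pseudogenes and 1 lncRNA among them that were not measured as single genes. Vmn2r8 to Vmn2r15 lie on the minus strand and Vmn2r16 and Vmn2r17 on the plus strand. With all 6 arrays the differences were larger at both ends of the row, an arrangement described after the values were seen. The 4 outer genes Vmn2r8, Vmn2r9, Vmn2r16 and Vmn2r17 differed by -5.74 to -2.65, and the 6 inner genes Vmn2r10 to Vmn2r15 by -2.32 to -0.28. Wild-type means were 5.35 to 9.17 for the outer genes and 2.68 to 6.23 for the inner ones. A low wild-type signal limits the fall that can be measured, and its part in this arrangement was not tested. The 95% intervals of inner Vmn2r14 and outer Vmn2r16 overlap widely, and without wild-type replicate 2 their order turned, at -2.92 and -2.86.

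The genes flanking the row had differences near 0. Of the 20 nearest named genes with a probe set of their own, 10 on each side, 0 passed in limma, also at an unadjusted p under 0.05. Their differences were between -0.40 and 0.40 with a median of 0.00. They include the genes next to the receptors, Tmed11, a gene of the p24 cargo receptor family, at -0.34 on the Vmn2r8 side and Crlf2, a cytokine receptor subunit, at -0.17 on the Vmn2r17 side. Both have a 95% interval that includes 0. The means of Tmed11, 2.23 in wild-type and 1.89 in null organs, lie below the lower quartile of all probe sets, 3.62. A change in Tmed11 may therefore not have been measurable.

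**Figure D3:**
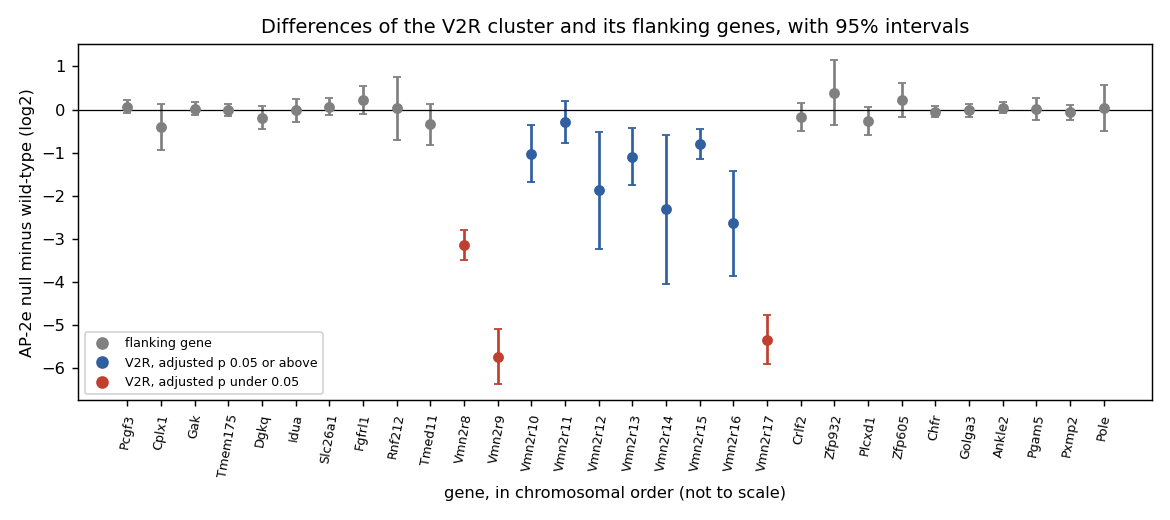
Difference between genotypes (AP-2e null minus wild-type, log2, with the 95% interval of the limma fit) for the receptor genes and 10 flanking genes on each side, in chromosomal order and not to scale. The grey flanking genes lie between -0.40 and 0.40, the red receptor genes passed over all genes, and the blue ones did not.

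The sequence upstream of the 10 genes is much alike. RefSeq (GRCm38.p6) windows of 250 bases before the gene start were found for all 10. Each RefSeq model begins at its ATG, with no untranslated leader annotated, so the windows are upstream of a start codon and need not hold the promoter. Aligned in pairs, they were 79.2% to 96.4% identical, with a median of 88.1% over 45 pairs. Vmn2r12 and Vmn2r13 were the most alike, and Vmn2r17 was in the 3 least alike pairs.

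A single stretch of at least 8 bases was common to all 10 windows, the 9 bases GTTTTCAGA. On either strand it was in 0.451% of all windows and in 4 of 107 windows of other V2R genes. It was chosen for being in all 10 windows, which are much alike, so the contrast with these shares follows from the choice. Vmn2r10 to Vmn2r15 carry it as 2 copies, and the 4 outer genes carry 1. Of all windows 10 (0.0304%) hold 2 or more copies, the 6 of these genes among them and 3 of the 107 of other V2R genes. None of the 6 genes with 2 copies passed, and 3 of the 4 with 1 copy did, a division described after the values were seen. This division is the one into inner and outer genes given above, so it is no separate observation. A link between the copies and the differences was not tested. The far ends of 6 windows, bases 250 to 151 before the start, are shown to place the copies (capitals), for the 4 outer genes and for 2 inner ones.
Vmn2r8, chr5:108808905-108809004, minus strand: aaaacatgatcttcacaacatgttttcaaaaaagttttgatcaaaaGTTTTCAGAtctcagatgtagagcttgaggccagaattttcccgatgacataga
Vmn2r9, chr5:108852661-108852760, minus strand: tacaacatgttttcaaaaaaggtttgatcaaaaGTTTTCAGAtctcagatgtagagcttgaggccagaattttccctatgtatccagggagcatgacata
Vmn2r11, chr5:109059603-109059702, minus strand: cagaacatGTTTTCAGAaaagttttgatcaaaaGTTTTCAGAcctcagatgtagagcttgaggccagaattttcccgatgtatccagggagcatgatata
Vmn2r14, chr5:109224773-109224872, minus strand: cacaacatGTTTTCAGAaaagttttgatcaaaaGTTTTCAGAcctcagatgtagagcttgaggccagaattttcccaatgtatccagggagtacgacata
Vmn2r16, chr5:109330131-109330230, plus strand: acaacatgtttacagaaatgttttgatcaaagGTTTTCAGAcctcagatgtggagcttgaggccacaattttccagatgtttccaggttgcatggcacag
Vmn2r17, chr5:109419763-109419862, plus strand: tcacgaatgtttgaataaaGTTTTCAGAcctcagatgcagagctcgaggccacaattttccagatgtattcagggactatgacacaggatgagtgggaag

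The palindromic AP-2 motif GCCNNNGGC, searched on both strands, was in 1 of the 10 windows, that of Vmn2r15, in 8 of 107 windows of other V2R genes and in 13.7% of all windows. The related form GCCNNNGGG was in 0 of the 10, in 36 of 107 windows of other V2R genes and in 23.2% of all windows. These are matches of letters in 250 bases and no measure of binding.

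Other V2R genes gave values in the same range. Of 92 measured V2R genes numbered above 17, 85 had lower means, with a median difference of -1.83. In limma 74 were lower at an unadjusted p under 0.05, and 35 fell past the threshold. Leaving out wild-type replicate 1, 2 or 3 gave 13, 11 or 19 genes, and leaving out null replicate 1, 2 or 3 gave 18, 15 or 18. By ranges of numbers the medians were -0.64 for Vmn2r19 to Vmn2r27 (8 genes), -2.15 for Vmn2r28 to Vmn2r79 (39 genes) and -2.10 for Vmn2r80 to Vmn2r89 (10 genes). They were -2.72 for Vmn2r90 to Vmn2r99 (10 genes), -1.83 for Vmn2r100 to Vmn2r109 (10 genes), -0.21 for Vmn2r111 to Vmn2r117 (7 genes) and -2.31 for Vmn2r118 and above (6 genes). The median of -2.10 for Vmn2r8 to Vmn2r17 lies among them, and differences between these ranges were not tested.

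**Figure D4:**
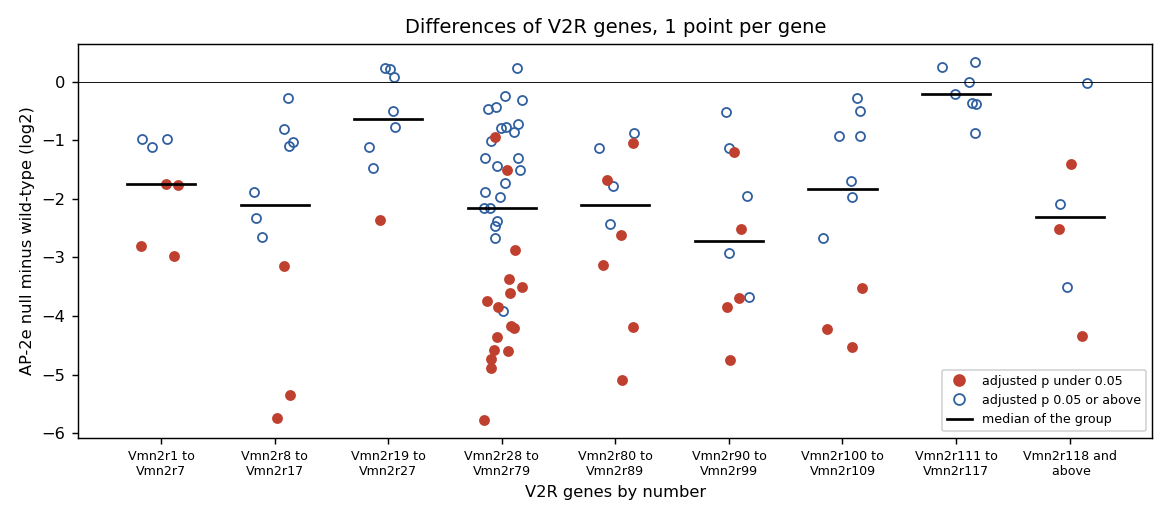
Difference between genotypes (AP-2e null minus wild-type, log2) of every measured V2R gene, 1 point per gene, grouped by gene number, filled red where the adjusted p was under 0.05, with black lines at the group medians. The points of Vmn2r8 to Vmn2r17 spread from -5.74 to -0.28 around a median of -2.10.

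The family C co-receptors Vmn2r1 to Vmn2r7 had all 7 means lower, 4 of them past the threshold, and a median difference of -1.75. The largest difference was that of Vmn2r5, -2.97. The count of 4 went to between 1 and 4 without single arrays (2 without wild-type replicate 2, and 1 without AP-2e null replicate 2 or 3).

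Genes of basal neurons other than receptors had smaller differences. Of 6 markers, which include Tfap2e, 0 passed over all genes in limma, 5 were lower at an unadjusted p under 0.05, and the median difference was -0.59 (1 passed without wild-type replicate 3). Calr4, a calreticulin-like chaperone, was at -1.10 (adjusted p = 0.141), Gnao1 at -0.68 (adjusted p = 0.331) and the axon guidance receptor Robo2 at -0.49 (adjusted p = 0.732). Of 12 genes of signal transduction downstream of V2Rs, which share Gnao1 and Gng8 with that list, 0 passed in limma and 2 reached an unadjusted p under 0.05, with a median of 0.01. Beside Gnao1 the second was Ano2, a calcium-activated chloride channel, at -0.40 (adjusted p = 0.705), while Trpc2, the transduction channel, was at -0.04. Of 9 H2-Mv genes, MHC class Ib genes made by a part of the basal neurons, 9 were lower, all at an unadjusted p under 0.05 in limma. Of them 1 passed, H2-M1 at -2.82 (adjusted p = 0.0271 in limma). With 1 array left out, 0 of the 9 passed, except that 1 did without wild-type replicate 3.

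Apical markers other than receptors and genes of mature neurons of both classes had medians near that of all genes, while most V1R genes had higher means. The 7 apical markers had a median of 0.08, with 0 past the threshold and 3 at an unadjusted p under 0.05 in limma. The 7 genes shared by both classes had a median of -0.04, with 0 past the threshold and 1 at an unadjusted p under 0.05. The 176 V1R genes had a median of 0.22, with 34 lower means, and 0 passed in limma (27 at an unadjusted p under 0.05, all higher). Their mean signal was 5.99, 5.43 and 5.92 in the wild-type replicates and 6.15, 6.01 and 5.92 in the null replicates. The genotypes thus overlapped in this mean, and wild-type replicate 2 was the lowest array. Vmn1r73 was at 1.54 (adjusted p = 0.0589), and 1 V1R gene passed with trend and robust moderation, the 30% filter, median centring, repeated quantile normalization or cyclic loess.

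Markers of other cells of the dissected organ covered main olfactory neurons, supporting cells, multiciliated cells, glands, blood and endothelium, neutrophils, cartilage and skeletal muscle. Of 34 listed, 31 were measured. None of these passed in limma, where 0 reached even an unadjusted p under 0.05. Mean levels of all 8 lists overlapped between the genotypes. Averaged over a list, multiciliated markers ranged from 8.09 to 8.75 on wild-type and from 8.04 to 8.27 on null arrays, and cartilage markers from 5.81 to 5.96 and from 5.65 to 8.17. The high cartilage value was that of null replicate 2, where Col2a1 stood at 8.89 and Acan at 9.70. On null replicates 1 and 3 Col2a1 was at 6.23 and 6.50, and Acan at 7.12 and 6.79. Supporting cell markers ranged from 6.55 to 8.53 on wild-type and from 6.97 to 8.45 on null arrays. With such spreads between arrays, a difference in the share of these cells may not have been detected.

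By Pearson correlation over the 6 arrays with the mean profile of the 10 genes, the most similar named genes were Vmn2r76 (r = 0.999), Vmn2r96 (r = 0.999), Osbp2 (r = 0.997), Vmn2r44 (r = 0.997) and Vmn2r49 (r = 0.995). The split between genotypes makes up most of this likeness, which is a description without a test. The 4 receptors among them fell by 3.70 to 4.58 on the log2 scale. Osbp2, which codes for an oxysterol-binding protein, had a difference of -0.25 (adjusted p = 0.502 in limma), so its pattern was alike in shape and much smaller in size.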

How the data were processed

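The deposited table holds log2 signals, 1 per array for each of 41345 probe sets, made by the authors with RMA and the Transcriptome Analysis Console, per the submitters' processing notes; their versions and settings were not stated. RMA corrects background, equalises arrays by quantiles and summarises probes, so shifts shared by most genes are removed and folds of dim genes understated. Of the probe sets, 23521 name 1 gene; where a gene had several, that with the highest mean was used.

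All 22180 genes were fitted in limma 3.58.1 (R 4.3.3; plain eBayes, 2-sided, no covariate) with Benjamini-Hochberg adjustment and 95% intervals. The number of arrays limits the precision. Members and lists were chosen with earlier results of these data known. The rule for named genes took all 10 members, Tfap2e, flanking genes as counts, the 5 most correlated genes and up to 4 genes per list by p, of which some are given. In a simulation of this comparison over 22180 genes, 89 of 100 genes shifted by 1 (log2) and 95 of 100 shifted by 2 were recovered, and 9 unshifted genes were called. The shifted genes were drawn from all genes, whose median SE was 0.10, while the SE of the 10 receptor genes reached 0.69. These rates therefore do not carry over to the 10 receptor genes. Windows were aligned with Biopython 1.88, and matplotlib 3.10.9 drew the plots. Deviations of same-numbered arrays correlated at 0.04, 0.11 and 0.02 across genes, so the numbers were not taken as pairs. Alternatives changed moderation, probe set summary, dim-gene filter, normalization, array weights and test, added a replicate block, or left out each array.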

Additional observations from a re-analysis of the deposited data

How the results depend on the processing

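Over 16 alternatives, all 156 differences computed for the 10 receptor genes were below 0. Trend and robust moderation, the probe set settings, the dim-gene filter, the plain test and the replicate block left these differences unchanged. Their sign could therefore not turn in those settings, and the remaining ones reuse the same arrays. Of the 156, 153 stayed on their side of the threshold (the 30% filter removed 4 genes: Vmn2r11, Vmn2r13, Vmn2r14 and Vmn2r16). The 3 exceptions were Vmn2r8, Vmn2r9 and Vmn2r17 under the plain one-way test, where 0 members, 4 lower and 0 higher genes passed in all. For the other 7 genes the lowest adjusted p was 0.0998, for Vmn2r16 without wild-type replicate 3. The count of members that fell was 3 in every other alternative. Without single arrays the median difference of the 10 genes was between -2.50 and -1.45, the number of all genes that fell between 17 and 32 in place of 48, and the number that rose between 0 and 1 in place of 2. The number that rose was 1 with probe sets averaged per gene, with probe sets tested singly and with array weights, and 4 with median centring and repeated quantile normalization. The replicate block, which the check of deviations did not bear out as pairing, gave 3 members that fell, 22 lower and 0 higher genes. The causes were not tested. Signal near background limits what Vmn2r11 and the null values of Vmn2r9, Vmn2r13, Vmn2r14, Vmn2r16 and Vmn2r17 can show.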
